A study of Mus musculus with 18 samples.

Results

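The nuclear genes of the mitochondrial respiratory chain and ATP synthase were examined in the adipose tissue of mice lacking caspase-6 and of their wild-type (WT) littermates. Members were chosen by name: gene symbols that begin with Nduf, Uqcr or Atp5, the 4 Sdh subunit genes, and the Cox4 to Cox8 genes. Of 95 matching symbols, 2 brown fat isoforms (Cox7a1 and Cox8b) were left out by the rule, and 4 genes (Atp5g2, Cox7b2, Cox8c and Ndufb4c) averaged below 1 CPM (the count of a gene scaled to the library's total) in every depot. The remaining 89 of 25124 genes comprised 37 genes of complex I, 8 complex I assembly factors, 4 genes of complex II, 8 of complex III, 16 of complex IV and 16 of complex V. Atp5l, just inside the limit, averaged 1.24 CPM in brown fat, and Ndufb4c, just outside it, 0.744 CPM.

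RNA was sequenced from inguinal white (iWAT), epididymal white (eWAT) and brown (BAT) adipose tissue, with 3 WT and 3 caspase-6 knockout (C6KO) libraries per depot and 18 in all. All mice were male, on a C57BL/6J background, and were fed a high fat diet (HFD, 60% of the energy as fat) for 12 weeks, starting at 10 to 14 weeks of age. The methods describe a fast of 10 hours before euthanasia for the HFD-fed cohorts, without naming the C6KO cohort. The C6KO mice carried a whole-body Casp6 deletion, so every cell type of a depot was affected. The reads were from poly(A) RNA of whole tissue, in which fewer cells of a type and less RNA per cell cannot be told apart, and whether libraries with the same number came from the same mouse is not given in the sources used here.

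The respiratory chain passes electrons from nutrients to oxygen across the inner mitochondrial membrane. Complex I (NADH dehydrogenase) and complex II (succinate dehydrogenase, also an enzyme of the tricarboxylic acid cycle) feed electrons to ubiquinone, complex III passes them to cytochrome c, and complex IV (cytochrome c oxidase) reduces oxygen to water. Complexes I, III and IV pump protons, and complex V (ATP synthase) uses the gradient to make ATP. Brown adipocytes are packed with mitochondria and dissipate the gradient as heat through Ucp1. Most subunits are encoded in the nucleus, and the core proton-pumping subunits by mitochondrial DNA. Of 26 symbols listed for mitochondrial DNA-encoded subunits, 0 were found in the deposited tables, so the values below concern the nuclear share alone.

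Library totals were 7803108 to 12428683 counts in BAT, 16506034 to 19043523 in iWAT and 16717201 to 19139694 in eWAT, so low genes were measured less precisely in BAT. Casp6 lay between 11.9 and 21.2 CPM in the 9 WT libraries and between 3.32 and 8.09 CPM in the 9 C6KO libraries, without overlap. Ucp1, the defining brown fat gene, stood at 11033, 4610 and 6557 CPM in the WT BAT libraries against 3.03, 2.20 and 1.29 CPM in iWAT. The BAT library WT-2 stood apart: 15 skeletal muscle markers summed to 48421 CPM in it, against 193 and 2190 CPM in WT-1 and WT-3 and 7694, 591 and 9763 CPM in the C6KO libraries, and all 15 were highest in WT-2. The same sum was 127 to 651 CPM in iWAT and 55.8 to 179 CPM in eWAT.

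Members took up a far larger part of the counts in BAT than in white fat. Their share in WT was 5.03 ± 1.36% (SD, n = 3) in BAT, 0.978 ± 0.0748% in iWAT and 0.710 ± 0.0404% in eWAT. In C6KO the shares were 5.50 ± 0.400%, 1.04 ± 0.110% and 0.769 ± 0.134%, and in each depot the genotypes differed by less than the larger of their 2 SDs. Levels of different genes were compared per kilobase (CPM per kb of the counted transcript), since a longer transcript yields more reads.

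Per kilobase, complex II and III genes had the highest median levels in BAT and the assembly factors the lowest in every depot. The mean of the library medians in WT BAT was 899 ± 235 CPM per kb (SD, n = 3) for complex II, 858 ± 300 for complex III, 695 ± 326 for complex IV, 459 ± 101 for complex V and 374 ± 146 for complex I. The assembly factors, which build complex I but are not part of it, stood at 23.4 ± 6.27 CPM per kb in WT BAT, 7.56 ± 0.973 in iWAT and 6.26 ± 0.333 in eWAT. In BAT the order of complexes II to IV did not exceed the spread between libraries.

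In white fat the same complexes sat closer together. The WT iWAT medians were 130 ± 7.93 CPM per kb for complex II, 128 ± 11.2 for complex III, 116 ± 9.15 for complex V, 106 ± 12.9 for complex IV and 70.2 ± 6.49 for complex I. The WT eWAT medians were 91.8 ± 7.89 for complex V, 87.3 ± 6.39 for complex II, 78.2 ± 9.42 for complex IV, 71.6 ± 6.71 for complex III and 47.6 ± 3.54 for complex I. Complex I was thus below the other 4 complexes in both white depots by more than the spread between libraries. The BAT level of complex III was 11.98 times the eWAT level, compared with 10.3 times for complex II, 5.0 times for complex V and 3.75 times for the assembly factors.

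**Figure D1:**
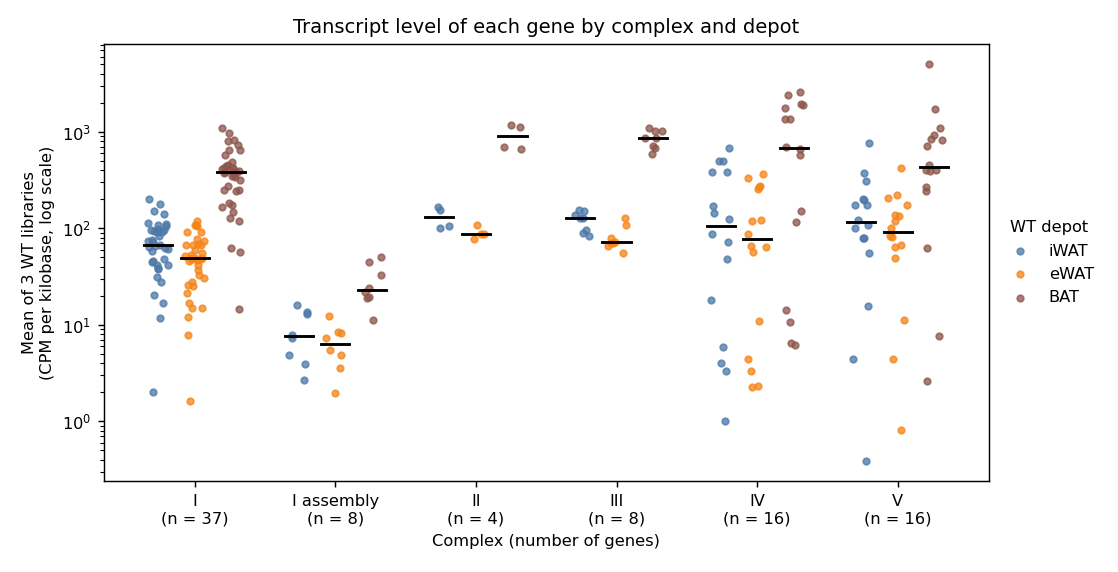
Transcript level of each gene in WT mice (vertical axis, mean of 3 libraries in CPM per kilobase, log scale) by complex (horizontal axis) and depot (colour). Most genes lie highest in BAT, and the 8 assembly factors lie below most subunits in all 3 depots.

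Single genes spanned a wide range. Atp5b, the catalytic beta subunit of ATP synthase, ranked first of the 89 in all 3 depots, at 5070 ± 1329 CPM per kb in WT BAT, 764 ± 39.6 in iWAT and 421 ± 8.99 in eWAT (SD, n = 3). Next in BAT were Ndufa4, a subunit named for complex I that is now placed in complex IV, at 2581 ± 1086 CPM per kb, and Cox4i1, the common isoform of the regulatory subunit 4 of complex IV, at 2432 ± 1033. In iWAT and eWAT the second place went to Cox8a, the common isoform of subunit 8 of complex IV, at 677 and 365 CPM per kb. The lowest in BAT were Atp5l at 2.60, Cox4i2 at 6.11, Cox6b2 at 6.44 and Atp5g1 at 7.61 CPM per kb. The Atp5g1 mean rested on WT-2, with 2.01, 19.45 and 1.38 CPM per kb in WT-1, WT-2 and WT-3.

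Some of the lowest levels are uncertain. Atp5l, which encodes a small membrane subunit of ATP synthase, has 8 annotated pseudogene copies with at least 95% identity over 50% or more of its transcript, and Atp5g1, 1 of the genes for the c-ring that turns in the membrane, has 1. Reads that fit several copies may have been lost or shared, which could not be checked from the counts. Of the 88 members with a transcript that could be searched (all but Ndufa11b), 79 had 0 such copies. Atp5h and Uqcrb had 3 each.

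BAT exceeded white fat for nearly every member. A member was called higher or lower where edgeR's quasi-likelihood test gave an adjusted p under 0.05 (Benjamini-Hochberg, over all genes tested) and a change of at least 1.5-fold. Against iWAT, 85 of 89 members were called higher in WT BAT and 0 lower, where 20.1% of all 15866 genes tested were called higher and 18.7% lower. Against eWAT, 86 of 89 were called higher and 0 lower, beside 25% and 23.6% of all genes. The median log2 fold change of members was 2.43 (5.38-fold) against iWAT and 2.86 (7.24-fold) against eWAT, and the 3 depot comparisons share their WT libraries. Markers of cell types differed too. Of 10 macrophage markers, 9 were called lower in BAT than in iWAT and 10 lower than in eWAT. Of 8 adipocyte markers, 1 was called higher and 2 lower against iWAT (median log2 fold change 0.00). Against eWAT 6 were called higher and 0 lower (median 1.48). The part of cell makeup in the members' differences was not tested.

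Complex I and II had all their members called higher in both comparisons. Ndufv1, the flavoprotein subunit that accepts electrons from NADH, measured 1610, 938 and 1280 CPM in the 3 WT BAT libraries, 155, 133 and 146 CPM in iWAT and 77.7, 79.2 and 77.5 CPM in eWAT (CPM scaled over the 18 libraries). The lowest BAT library was above the highest white fat library, and the log2 fold change was 3.14 ± 0.17 (SE) against iWAT and 4.03 ± 0.18 against eWAT (edgeR adjusted p = 8.14e-10 and 4.74e-11). Sdhb, the iron-sulfur subunit of succinate dehydrogenase, measured 1666, 872 and 1213 CPM in BAT, 126, 108 and 108 CPM in iWAT and 97.0, 98.8 and 84.4 CPM in eWAT. Its log2 fold change against iWAT, 3.46 ± 0.23, was the largest of complex II. Sdhc, which with Sdhd anchors the enzyme in the membrane, rose least in that complex, by 2.11 ± 0.16. The 7 core subunits of complex I, which carry the redox centres, had a median log2 fold change of 2.92 against iWAT, the 29 accessory subunits 2.43 and the 8 assembly factors 1.70. Among the core subunits, Ndufv2 differed by 3.15, Ndufs1 by 2.94, Ndufs8 by 2.92 and Ndufs7 by 2.39 on the log2 scale.

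Most genes of complexes III, IV and V were also called higher in BAT. All 8 complex III genes were called higher in both comparisons. Uqcrfs1, the Rieske iron-sulfur protein, measured 2013, 970 and 1355 CPM in BAT against 177, 172 and 158 CPM in iWAT and 94.8, 98.0 and 82.5 CPM in eWAT, with log2 fold changes of 3.10 ± 0.22 and 3.98 ± 0.23. Uqcrc1, a core protein of the same complex, rose by 2.90 against iWAT and 3.69 against eWAT. In complex IV, 14 of 16 genes were called higher in each comparison. Cox5a, a matrix-side subunit with a single gene, had the values 1341, 673 and 806 CPM in BAT and 100.5, 105 and 91.0 CPM in iWAT, a log2 fold change of 3.25 ± 0.23. The common subunit genes Cox5b, Cox6b1, Cox7a2 and Cox7b rose by 2.73, 2.20, 2.48 and 3.20 over iWAT, and the low Cox7c by 1.41. In complex V the call was met by 14 of 16 genes against iWAT and 15 of 16 against eWAT. Atp5b stood at 11703, 6798 and 9898 CPM in BAT, 1490, 1345 and 1444 CPM in iWAT and 803, 788 and 769 CPM in eWAT, which gave log2 fold changes of 2.73 ± 0.18 and 3.59 ± 0.19.

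**Figure D2:**
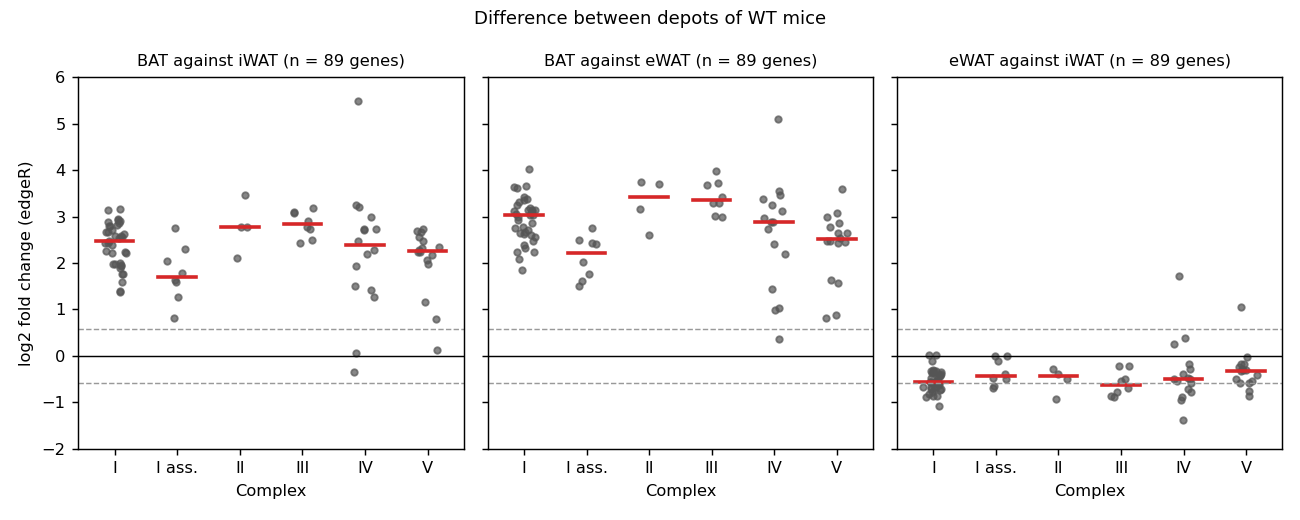
Log2 fold change of each member between depots of WT mice (vertical axis) by complex (horizontal axis), with the median of each complex as a red line and dashed lines at 1.5-fold in either direction. In both BAT comparisons nearly all points lie above the upper dashed line, and against iWAT in eWAT most lie below 0.

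The few genes that were not called in BAT against iWAT were Atp5g1, Atp5g3, Cox4i2 and Ndufa4l2. Atp5g3 encodes the same mature c-ring protein as Atp5g1 and measured 318, 350 and 207 CPM in BAT, 288, 265 and 250 CPM in iWAT and 156, 169 and 151 CPM in eWAT. BAT and iWAT overlapped for this gene (log2 fold change 0.13 ± 0.20, edgeR adjusted p = 0.626), whereas BAT exceeded eWAT by 0.88 ± 0.20 (adjusted p = 0.00121). For comparison, the 5 catalytic head genes of the same enzyme rose over iWAT by a median of 2.24. Against eWAT the uncalled genes were Atp5g1, Ndufa4l2 and Cox6b2 (adjusted p = 0.0619).

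Short transcripts as a class were also higher in BAT. The members' transcripts had a median length of 748 bases, with 65.2% under 1000 bases. Among 532 other genes under 1000 bases with at least 10 CPM, the median log2 difference was 0.52 against iWAT and 0.64 against eWAT, compared with -0.05 and 0.00 for 5353 genes over 3000 bases. The part of transcript length in the members' differences was not tested beyond these values.

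In several subunits of complex IV a second gene takes the place of the common one in certain tissues. Of the second genes among the members, Cox4i2 and Ndufa4l2 formed a minor part in all depots. Per kilobase, Cox4i2, the isoform known from lung and hypoxic cells, made up 1.16 ± 0.121% of Cox4i1 plus Cox4i2 in WT iWAT, 0.675 ± 0.0294% in eWAT and 0.254 ± 0.0259% in BAT (SD, n = 3). Ndufa4l2, a hypoxia-induced relative of Ndufa4, made up 4.46 ± 0.472%, 3.94 ± 1.01% and 0.561 ± 0.0465%. For both pairs the share was lowest in BAT, without overlap between the BAT and white fat libraries. Ndufa4 rose over iWAT by 2.74 ± 0.26, from 228, 165 and 175 CPM to 1854, 812 and 1136 CPM, whereas Ndufa4l2 measured 18.8, 9.72 and 12.3 CPM in BAT and 18.7, 14.7 and 17.9 CPM in iWAT (log2 fold change -0.34 ± 0.21, adjusted p = 0.202).

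The related gene Cox7a2l showed the same shift against Cox7a2. It rose in BAT by 1.28 ± 0.18 against iWAT and 1.03 ± 0.18 against eWAT, less than most members, and its share per kilobase of the pair was 27.8% in iWAT and 39.4% in eWAT, above the share of 15.4% in BAT. The brown fat isoforms that the rule leaves out moved in the other direction. Cox7a1 made up 4.57 ± 0.774% of Cox7a2 plus Cox7a1 in WT iWAT and 66.0 ± 0.556% in BAT, and Cox8b 6.91 ± 0.941% of Cox8a plus Cox8b in iWAT and 68.3 ± 2.51% in BAT.

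In the BAT libraries Cox6a2, the heart and skeletal muscle isoform of subunit 6a, varied with the skeletal muscle markers. In iWAT it did not. The marker sum there was 127 to 239 CPM in WT and 164 to 651 CPM in C6KO. Mean Cox6a2 in iWAT was 3.35 CPM per kb in WT and 0.840 CPM per kb in C6KO. In WT BAT it measured 0.730, 286 and 6.94 CPM, against 1.54, 2.79 and 2.24 CPM in iWAT. It was called higher in BAT than in iWAT (log2 fold change 5.48 ± 1.58, adjusted p = 0.0123) although the libraries overlapped, and without WT-2 the value was 0.85 (adjusted p = 0.489). Against eWAT it was 5.10 ± 1.54 with WT-2 and 0.47 (adjusted p = 0.690) without it. Atp5g1 also peaked in WT-2, at 1.61, 15.5 and 1.10 CPM in WT BAT beside 3.80, 3.98 and 2.91 CPM in iWAT. Its estimate changed sign without that library, from 0.79 ± 0.68 (adjusted p = 0.352) to -1.41 (adjusted p = 0.0212) against iWAT, and to -1.39 (adjusted p = 0.0186) against eWAT. Across the 6 BAT libraries scaled among themselves, Cox6a2 measured 0.646, 269 and 6.30 CPM in WT and 38.0, 2.98 and 31.7 CPM in C6KO, in the same order as the summed muscle markers except that C6KO-1 and C6KO-3 exchanged places.

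**Figure D3:**
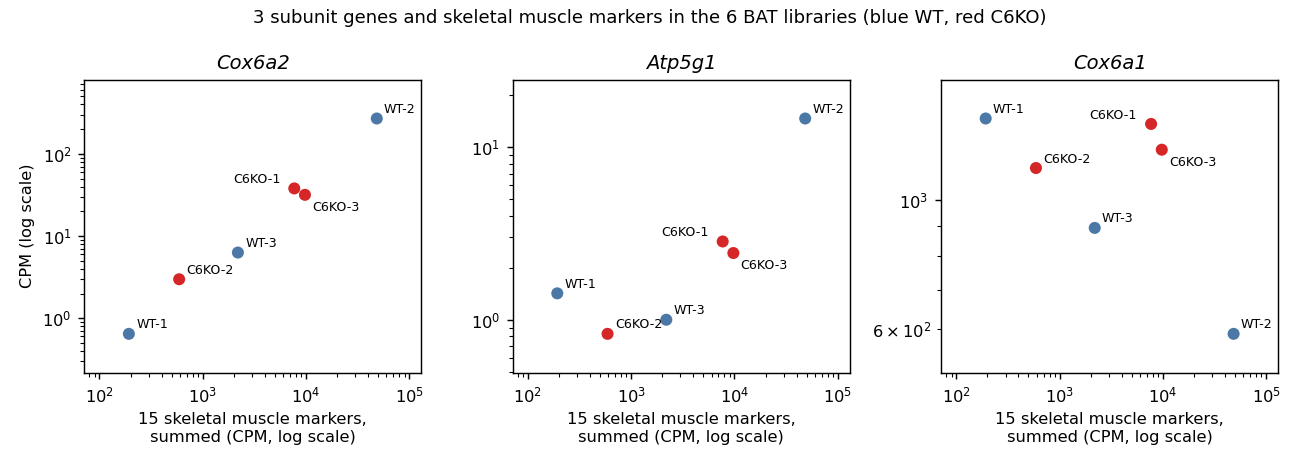
Levels of Cox6a2, Atp5g1 and Cox6a1 in the 6 BAT libraries (vertical axes, CPM, log scale) against the sum of 15 skeletal muscle markers (horizontal axes, CPM, log scale), WT in blue and C6KO in red. WT-2, at 48421 CPM of muscle markers, is highest for Cox6a2 and Atp5g1 and lowest for Cox6a1, the common isoform.

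The white depots differed less. In WT eWAT 26 of 89 members were called lower than in iWAT and 1 higher, where 12.9% of all genes were called lower and 12.8% higher, with a median log2 fold change of -0.49 (0.71-fold). Of the 26, 13 belonged to complex I, 2 were assembly factors, 1 belonged to complex II, 3 to complex III, 4 to complex IV and 3 to complex V. The estimates of 82 members were below 0, and without the iWAT library WT-1 the number called lower was 17.

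Catalytic as well as accessory genes were among those lower in eWAT. Sdha, the flavoprotein that oxidises succinate, measured 250.5, 262 and 231 CPM in eWAT and 463, 464 and 484 CPM in iWAT, a log2 fold change of -0.92 ± 0.16 (edgeR adjusted p = 0.000351). Ndufv1 changed by -0.89 ± 0.16, Uqcrfs1 by -0.88 ± 0.21 and Atp5b by -0.86 ± 0.17, all without overlap between the depots. Ndufab1, the mitochondrial acyl carrier protein that also sits in complex I, fell from 23.8, 20.8 and 17.6 CPM to 10.01, 10.8 and 8.77 CPM (log2 fold change -1.07 ± 0.31, adjusted p = 0.0139). Of the complex I genes, 5 of 7 core and 8 of 29 accessory subunits were called lower.

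Cox4i2 had the largest estimate among those called lower in eWAT, with 30, 31 and 32 counts against 70, 74 and 72 counts in iWAT (log2 fold change -1.38 ± 0.32, adjusted p = 0.00378). Cox6b2, known as the testis isoform of subunit 6b, was the only member called higher, with 43, 37 and 28 counts in eWAT and 5, 12 and 12 in iWAT (log2 fold change 1.72 ± 0.47, adjusted p = 0.00929). The counted transcript of Cox6b2 differed between the depots' tables, as did those of Atp5g1 and Ndufv2, so its depot difference can reflect other exons.

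Cell makeup differed between the white depots as well. The sum of 10 macrophage markers was 6496 to 7881 CPM in WT eWAT and 1990 to 2182 CPM in WT iWAT, with 9 of 10 markers called higher in eWAT. All 8 adipocyte markers were called lower, with sums of 8800 to 10530 CPM in eWAT and 23533 to 26737 CPM in iWAT. The decrease in members was smaller than that of the adipocyte markers, whose median log2 fold change was -1.52, and the part of cell makeup in it was not tested.

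The promoters of 72 members could be matched to RefSeq (GRCm38.p6). In the window from 250 bases before to 50 after the start, the core motif of NRF1 (CGCANGCG, either strand), a factor known for driving respiratory genes, occurred in 27 of 72 (37.5%), compared with 11.4% of 18633 genes. By complex, it occurred in 2 of 3 complex II promoters (66.7%) and 3 of 5 complex III promoters (60%). The counts were 8 of 14 for complex V (57.1%) and 3 of 7 for the assembly factors (42.9%). They were 10 of 32 for complex I (31.2%) and 1 of 11 for complex IV (9.09%). In the smaller sets a single promoter moves the percentage far. The YY1 motif (AAGATGGC) occurred in 13.9% of members and 3.24% of genes, the ETS motif (CCGGAAGT) in 6.94% and 5.29%, and the estrogen-related receptor motif (TCAAGGTCA) in 2.78% and 0.349%. The GC box of SP1 (GGGCGG), a factor the study examined as a caspase-6 substrate, occurred in 45.8% of members and 46.5% of genes.

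The 100 bases before the start are given for 4 members with a match inside them, chosen as the member with the highest WT BAT level in complexes II, III, V and I, and for the 2 members of highest BAT level with no such match. The SP1 GC box was not counted as a match here and is not marked: Atp5b holds it on the reverse strand at position -45 from its start. Capitals mark matches to the NRF1 core or, in Uqcrh, to the ETS motif on the reverse strand. Each is written 5′ to 3′ on the strand of its gene in GRCm38.p6.
Sdha (chr13:74350241-74350340, minus strand): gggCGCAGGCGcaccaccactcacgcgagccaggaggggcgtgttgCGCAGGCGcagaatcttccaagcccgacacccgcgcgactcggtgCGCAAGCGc
Uqcrh (chr4:116075071-116075170, minus strand): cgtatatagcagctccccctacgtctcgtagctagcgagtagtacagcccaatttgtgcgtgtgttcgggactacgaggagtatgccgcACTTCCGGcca
Atp5k (chr5:108434400-108434499, minus strand): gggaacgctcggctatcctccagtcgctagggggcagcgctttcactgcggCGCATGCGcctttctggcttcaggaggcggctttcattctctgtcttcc
Ndufb10 (chr17:24724424-24724523, minus strand): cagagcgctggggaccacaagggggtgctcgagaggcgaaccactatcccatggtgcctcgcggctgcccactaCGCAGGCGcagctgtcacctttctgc
Atp5b (chr10:128083207-128083306, plus strand): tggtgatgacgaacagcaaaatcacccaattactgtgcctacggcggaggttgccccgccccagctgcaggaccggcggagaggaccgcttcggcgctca
Ndufa4 (chr6:11907451-11907550, minus strand): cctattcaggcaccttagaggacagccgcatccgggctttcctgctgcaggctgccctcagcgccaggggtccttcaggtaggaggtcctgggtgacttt

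Promoters with and without an NRF1 match went with like depot differences. The median log2 fold change in BAT against iWAT was 2.42 over 27 members with a match and 2.44 over 45 without. The 2 sequences without a marked match belong to the members with the highest BAT levels, Atp5b and Ndufa4, whereas Atp5k, with a match, measured 328, 169 and 183 CPM in BAT and 43.4, 36.9 and 34.7 CPM in iWAT (log2 fold change 2.56 ± 0.30). Sdha, with 3 matches in its 100 bases, rose by 2.77 ± 0.17. A match here describes letters in this window only.

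Caspase-6 deficiency gave no called change in any member. With 87 members tested in each white depot and 89 in BAT, 0 were called by edgeR in each comparison, and 0 also by DESeq2. Of all genes, edgeR called 0.0275% in iWAT, 0.746% for eWAT and 1.24% for BAT. At an unadjusted p under 0.05 there were 6 members in each white depot and 1 in BAT (6.9%, 6.9% and 1.12% of those tested), below the 16.5%, 17.6% and 13.2% of all genes. DESeq2 gave 5, 7 and 1 at that level. The smallest edgeR adjusted p of a member was 0.335 in BAT, 0.206 in iWAT and 0.150 in eWAT.

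The estimates were small and mostly positive. The log2 estimate was above 0 for 67 of 87 members in iWAT, with a median of 0.09 (1.06-fold) beside 0.03 over all genes. For eWAT these values were 63 of 87, 0.09 (1.06-fold) and -0.01, and for BAT 62 of 89, 0.12 (1.09-fold) and -0.03. The direction rested on 1 library in each depot, since 44 of 88 estimates were above 0 in iWAT without C6KO-3, 28 of 87 in eWAT without C6KO-2 and 31 of 89 in BAT without WT-2. The 95% interval lay within 1.5-fold in both directions for 16 members in BAT, 67 in iWAT and 56 in eWAT. A change of 1.5-fold or more therefore lay outside the interval for most members in white fat and inside it for most in BAT, where the median distance from estimate to interval bound was 0.57.

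**Figure D4:**
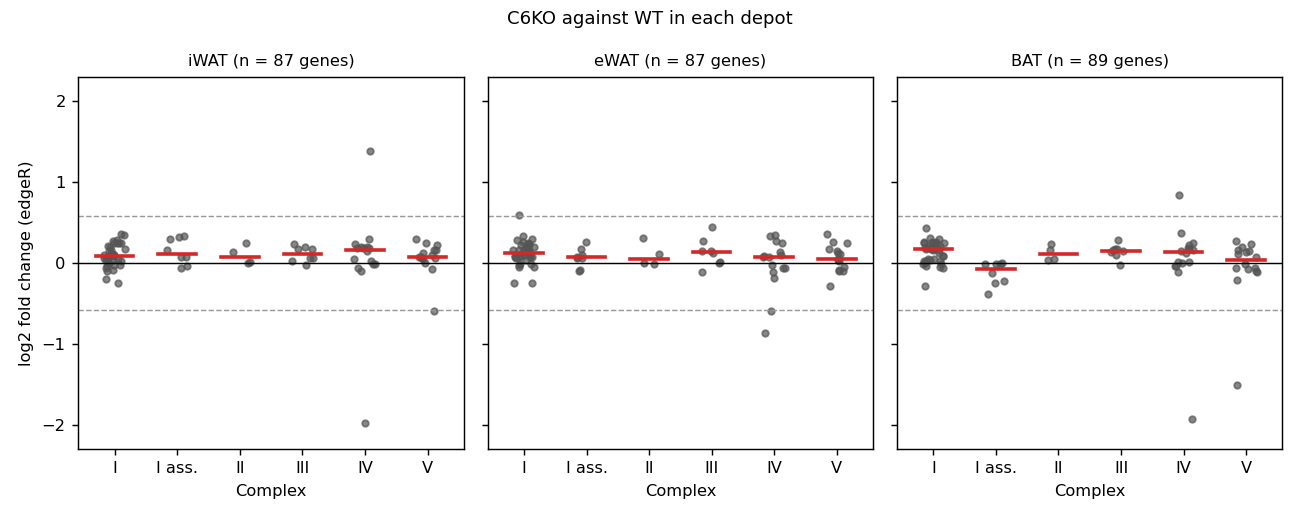
Log2 fold change of each member in C6KO against WT (vertical axis) in iWAT, eWAT and BAT, by complex (horizontal axis), with the median of each complex as a red line and dashed lines at 1.5-fold. The points cluster around 0 in all 3 depots, and those outside the dashed lines are Cox6a2 and Cox6b2 in each depot, Atp5md in iWAT, Ndufab1 in eWAT and Atp5g1 in BAT.

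In iWAT 5 members with positive and 1 with a negative estimate had an unadjusted p under 0.05. Ndufa7, an accessory subunit of complex I, measured 95.4, 104 and 98.1 CPM in C6KO and 86.9, 71.2 and 74.2 CPM in WT (CPM scaled within the depot). All 3 C6KO libraries were above all WT libraries, with a log2 fold change of 0.36 ± 0.12 (edgeR adjusted p = 0.206). Atp5h, a subunit of the peripheral stalk of ATP synthase, had a value of 0.30 ± 0.11 (adjusted p = 0.236), the assembly factor Ndufaf1 0.34 ± 0.13 (adjusted p = 0.263) and Ndufa3, an accessory subunit of complex I, 0.35 ± 0.14 (adjusted p = 0.275). Altogether 9 members were higher and 1 lower without overlap in iWAT, 11.5% of the members compared with 23.2% of all genes.

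In eWAT the 6 members under an unadjusted p of 0.05 all had positive estimates. Ndufab1 measured 12.8, 20.4 and 16.1 CPM in C6KO and 10.9, 12.02 and 9.68 CPM in WT, a log2 fold change of 0.60 ± 0.19 (edgeR adjusted p = 0.150). Ndufv1 measured 111, 119 and 94.9 CPM in C6KO and 84.8, 88.0 and 85.6 CPM in WT, a log2 fold change of 0.33 ± 0.11 (adjusted p = 0.152). For both genes the lowest C6KO library was above the highest WT library. Atp5b, at 1156, 1248 and 919 CPM in C6KO and 876, 875 and 849 CPM in WT, had an estimate of 0.35 ± 0.14 (adjusted p = 0.216). The other 3 were Cox6a1, Cox8a and Sdha, with estimates between 0.31 and 0.34. On the negative side, the core subunit Ndufv2 and the accessory subunit Ndufa6 were both at -0.25 in eWAT and at 0.11 and 0.29 in iWAT. In all 7 members did not overlap between genotypes, 8.05% compared with 23.2% of all genes.

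In BAT the libraries overlapped for all but 1 member. Ndufv1 measured 1388, 1459 and 1410 CPM in C6KO and 1425, 885 and 1161 CPM in WT (log2 fold change 0.29 ± 0.21, edgeR adjusted p = 0.600). The 3 C6KO values lay close together, with WT-1 among them and WT-2 and WT-3 below. Cox6b2 was the exception, with 5.09, 6.30 and 6.81 CPM in C6KO and 3.23, 2.20 and 4.70 CPM in WT (0.85 ± 0.34, adjusted p = 0.335). One non-overlapping member is 1.12% of those tested, beside 20.2% of all genes. By complex, 31 of 37 complex I estimates were above 0 and 0 of 8 assembly factor estimates (median -0.07). The lowest of the latter, Ndufaf5, measured 22.4, 19.8 and 20.5 CPM in C6KO and 35.7, 26.4 and 20.1 CPM in WT (-0.39 ± 0.22, adjusted p = 0.491). Complex I assembly factors outside the naming rule did not share this direction, with 7 of 9 estimates above 0 in BAT (median 0.13). Ndufa1, a small membrane subunit of complex I, had 238, 195 and 232 CPM in C6KO and 232, 103 and 158 CPM in WT (0.43 ± 0.27, adjusted p = 0.547).

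Members with primers among the study's qPCR assays are Cox4i1, Ndufv1, Atp5b and Uqcrc2. By qPCR the study reported higher Cox4i1 and Ndufv1 in C6KO eWAT, and higher Ndufv1 and Atp5b (under the name Atp5f1b) in C6KO iWAT. In the sequencing counts Cox4i1 had a log2 estimate of 0.18 in BAT, 0.30 in iWAT and 0.28 in eWAT. In the same order Ndufv1 had 0.29, 0.25 and 0.33, Atp5b 0.17, 0.24 and 0.35, and Uqcrc2, a core protein of complex III, 0.15, 0.17 and 0.01. Subunits often blotted to stand for complexes I, II and V had 0.17, 0.20 and 0.20 (Ndufb8), 0.16, 0.13 and -0.02 (Sdhb) and 0.13, 0.05 and 0.18 (Atp5a1). In each depot 0 of the 7 were called. In iWAT Atp5b measured 1712, 1640 and 1659 CPM in C6KO and 1480, 1327 and 1432 CPM in WT without overlap, and its 95% interval ran from -0.07 to 0.55. Cox4i1 in eWAT measured 227, 377 and 270 CPM in C6KO and 237, 241 and 244 CPM in WT, so 1 C6KO library carried most of the difference.

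Single libraries set the position of the whole group in each depot. In iWAT C6KO-3 was the highest of 6 libraries for 56 of 87 members, in eWAT C6KO-2 for 75 of 87, and in BAT WT-1 for 74 of 89, while BAT WT-2 was the lowest for 75 of 89. The median distance from the WT mean was 0.27, 0.40, 0.50 and -0.37 on the log2 scale in these 4 libraries. Without C6KO-3 the iWAT median was -0.00, and Atp5md was called lower (log2 fold change -1.18, adjusted p = 0.0498). Without C6KO-2 the eWAT median was -0.11. In BAT the median was -0.06 without WT-2 and 0.44 without WT-1, with 81 of 89 above 0 and 0 called. In the fit without WT-1, 31 members (34.8%) had an unadjusted p under 0.05, compared with 13.6% of all genes.

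Short transcripts that are not members were also displaced in these libraries, and in some others. For other genes under 1000 bases the median distance was 0.18 in iWAT C6KO-3, 0.21 in eWAT C6KO-2, 0.38 in BAT WT-1 and -0.27 in BAT WT-2. In eWAT the C6KO-1 library lay further from 0, at -0.24, with the members at -0.11. Ribosomal protein genes, also short, stood at 0.14, -0.01, 0.35 and -0.11 in the 4 libraries. They were lower still in eWAT C6KO-1 (-0.51), BAT C6KO-2 (-0.27) and BAT WT-3 (-0.23). The 10 brown adipocyte markers summed to 17775 CPM in BAT WT-1 and 7400 CPM in WT-2, and to 11016 to 14602 CPM in C6KO. The part of transcript length, library quality or cell makeup in these positions was not tested.

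**Figure D5:**
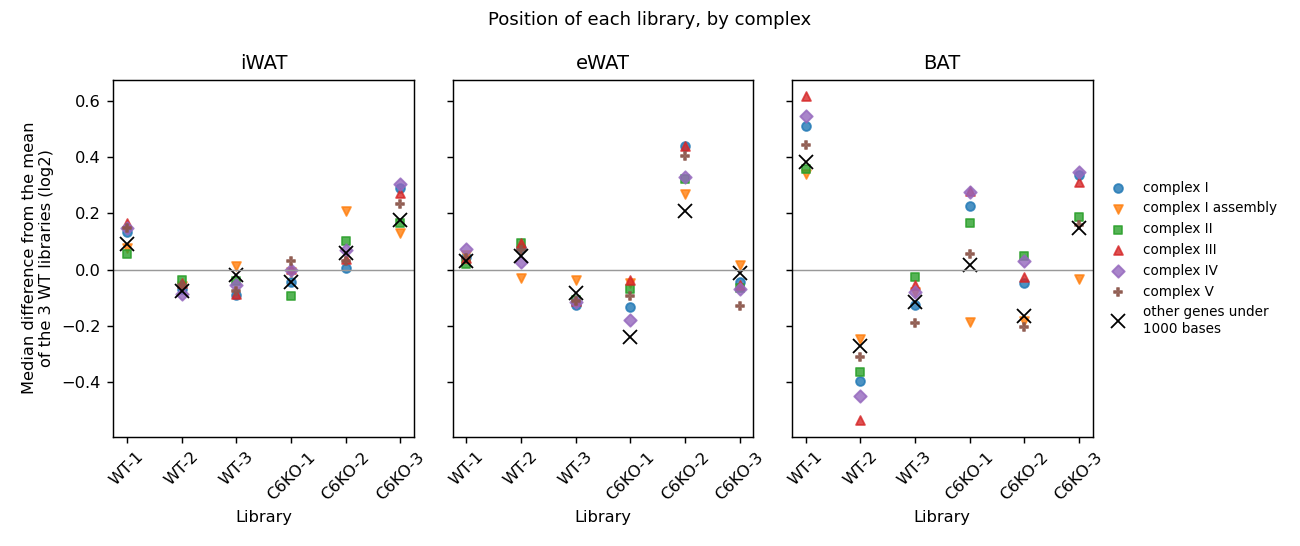
Median difference of each complex from the mean of the 3 WT libraries (vertical axis, log2) in every library (horizontal axis) of the 3 depots, with crosses for 484 to 518 other genes under 1000 bases. All complexes lie above the WT mean in iWAT C6KO-3, eWAT C6KO-2 and BAT WT-1 and below it in BAT WT-2, as do the crosses.

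Markers of other cells differed between genotypes beside these values. Macrophage markers summed to 1990 to 2182 CPM in WT and 444, 470 and 1435 CPM in C6KO iWAT. In eWAT the sums were 6496 to 7881 and 4409 to 5458 CPM. In each white depot 0 of 10 were called lower, beside 0.0206% of all genes in iWAT and 0.208% in eWAT. All 10 estimates were below 0 in both, with a median log2 fold change of -1.54 in iWAT and -0.49 in eWAT. In BAT the sums were 758 to 1009 and 252 to 388 CPM, and 6 of 10 were called lower, beside 1.07% of all genes. The 8 adipocyte markers summed to 23533 to 26737 CPM in WT and 32944 to 35048 CPM in C6KO iWAT. There 0 of 8 were called, beside 0.0275% of all genes. In eWAT the sums were 8800 to 10530 and 12512 to 15943 CPM, and 2 of 8 were called higher, beside 0.537% of all genes. In BAT the adipocyte marker sums overlapped, at 17817 to 28405 and 21838 to 25144 CPM, with 0 of 8 called. Their median log2 fold change was 0.39 in iWAT and 0.66 in eWAT, above the 0.09 of the members in both. The list holds Pparg, and also Pnpla2, Adipoq, Plin1 and Fabp4, which the study names as target genes of its product. A rise in these markers is thus not a measure of adipocyte number alone. Hepatocyte markers, low throughout, reached 261 CPM in iWAT C6KO-3 against 10.6 to 48.0 CPM in WT iWAT, with 0 of 6 called. In eWAT they summed to 23.8, 66.9 and 69.6 CPM in C6KO and 6.79 to 12.3 CPM in WT, and 2 of 6 were called higher. Their part in the members' values was not tested.

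The effect of C6KO on a member was not called different between any pair of depots. A test of the difference itself (an interaction term over the 18 libraries) was called at an adjusted p under 0.05, with no fold minimum. It called 0 members in each of the 3 pairs, where 0%, 0.183% and 0.536% of all genes were called for eWAT against iWAT, BAT against iWAT and BAT against eWAT. At an unadjusted p under 0.05 there were Cox6b2, in both comparisons with eWAT, and Ndufaf1. Cox6b2 had 19, 35 and 25 counts in C6KO and 5, 12 and 12 in WT iWAT, but 8, 25 and 27 in C6KO and 43, 37 and 28 in WT eWAT, without overlap in either depot and in opposite directions. The difference of its effects was -2.25 ± 0.64 for eWAT against iWAT (adjusted p = 0.890) and 1.70 ± 0.61 for BAT against eWAT (adjusted p = 0.272). The counted transcript of Cox6b2 differed between the depots' tables, so these differences can reflect other exons. Ndufaf1 had -0.47 for BAT against iWAT (adjusted p = 0.445).

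Cox6a2 was the member with the largest negative estimate in iWAT C6KO, with 10, 1 and 18 counts against 26, 47 and 40 in WT (log2 fold change -1.99 ± 0.73, adjusted p = 0.236). In BAT its estimate was -1.94 with an interval from -8.002 to 4.13, beside the muscle markers of WT-2. Its levels in white fat lay between 0.0546 and 3.54 CPM, so its estimates rest on few counts.

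Most genes on lists that work with the members were also called higher in BAT, beside 20.1% of all genes against iWAT and 25% against eWAT. All 14 tricarboxylic acid cycle genes were called higher in BAT in both comparisons, with medians of 2.96 and 3.66. In eWAT against iWAT 13 of 14 were called lower, beside 12.9% of all genes. Of 9 further complex I assembly factors outside the naming rule 8 were called higher against iWAT and 9 against eWAT, with a median of 1.30 and 1.78. The corresponding counts were 4 and 4 of 4 complex II assembly factors, 8 and 8 of 8 further complex III genes, 18 and 21 of 23 complex IV assembly factors, and 4 and 4 of 5 further complex V genes, 1 of which (Atp5md) is also a member. The exception in complex V was Atpif1, the inhibitor of ATP synthase, at 30.1, 18.2 and 19.6 CPM in BAT, 34.9, 24.2 and 31.1 CPM in iWAT and 85.0, 71.3 and 62.1 CPM in eWAT. It was called lower in BAT than in eWAT (log2 fold change -1.69 ± 0.23, edgeR adjusted p = 7.30e-06) and higher in eWAT than in iWAT (1.27 ± 0.22, adjusted p = 0.000400), as was the complex IV assembly factor Coa4 in the latter comparison (1.06 ± 0.33, adjusted p = 0.0192). Assembly factors of complexes I, II and IV thus had smaller medians than the members, as did the assembly factors inside the rule.

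Of 21 regulators of mitochondrial biogenesis, 14 were called higher in BAT than in iWAT and 0 lower, beside the 20.1% and 18.7% of all genes. Against eWAT 15 were called higher and 1 lower, beside 25% and 23.6%, the lower 1 being Pprc1, a relative of the coactivator Ppargc1a (-0.78 ± 0.19, adjusted p = 0.00210). Ppargc1a, the coactivator that drives mitochondrial biogenesis, measured 102, 66.9 and 91.0 CPM in WT BAT and 8.07, 6.36 and 4.87 CPM in iWAT, and Esrra, a nuclear receptor it works with, 271, 155 and 200.5 CPM against 38.1, 46.3 and 45.5 CPM. Gabpa, the DNA-binding subunit of an ETS factor, stood at 208 ± 45.6 CPM against 62.5 ± 6.25, and Tfam, which packages and transcribes mitochondrial DNA, at 70.5 ± 14.5 against 25.6 ± 2.15 (SD, n = 3). Nrf1 itself measured 17.0 ± 1.80 CPM in BAT and 17.7 ± 2.46 CPM in iWAT (log2 fold change -0.05, edgeR adjusted p = 0.817) and Yy1 105 ± 9.60 against 94.2 ± 4.67 CPM (0.16, adjusted p = 0.256). In C6KO against WT 0 genes of these lists were called in any depot.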

How the data were processed

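Poly(A) RNA of 18 libraries was sequenced. The authors aligned the reads to mm10 with STAR and counted exon reads with HOMER. They deposited 1 table of raw counts per depot, with 1 transcript and its length in bases for each of 25124 genes. Strand, annotation and tool versions are not given in the sources used here. DESeq2 appears in the submitters' processing notes. Samples were grouped by their labels, 0 value columns lacked a sample, and no sample was left out of the main fits.

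Counts were fitted with edgeR 4.0.16 in R 4.3.3 (TMM scaling, filterByExpr, robust quasi-likelihood test). C6KO and WT were compared within a depot over 6 libraries, and depots and interactions in 1 fit of 18 libraries. The tests were run over all genes, with Benjamini-Hochberg adjustment, and a call needed an adjusted p under 0.05 and at least 1.5-fold. For the interactions a call needed only the adjusted p under 0.05. CPM values from a depot's own fit and from the 18-library fit differ slightly in scale. Intervals are 95% intervals of the fits. Distances of libraries used log2(CPM + 1). Replicates are separate libraries, and where they do not come from separate mice the p-values measure technical spread.

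Alternatives were DESeq2 1.42.0 and its size factors, total counts only, other filters, no fold minimum, genes with 1 transcript in all tables, only the WT libraries compared, a replicate block and leaving out each library. The scripts were tested on simulated counts. Pseudogene copies were sought with BLAST+, and promoters came from RefSeq. Members were named where called in a C6KO comparison, where among the 3 smallest unadjusted p in each direction, as tissue isoforms or paralogs, as genes of the study's qPCR or subunits often blotted, as catalytic subunits, where among the 3 largest differences in each direction between depots, where among the 3 highest or lowest per kilobase in BAT, or near the CPM limit. Sdhc, Ndufa3, Ndufaf1, Ndufb10, Uqcrb, Uqcrh and Atp5k, and Atpif1, Coa4 and Pprc1 of the other lists, fall outside this rule and were chosen after their values were seen. The members, lists and tests were chosen with earlier results of these data known.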

Additional observations from a re-analysis of the deposited data

How the results depend on the processing

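With 3 libraries per group the C6KO comparisons can show only differences larger than the intervals given, and BAT, at the lowest depth and the widest spread, is the least precise. In C6KO against WT, 0 members were called in each depot under each alternative other than leaving out 1 library, DESeq2 and no fold minimum included. Leaving out each library in turn, the number called lower in iWAT ranged from 0 to 1 (Atp5md, without C6KO-3), and the median log2 fold change ranged from -0.06 to 0.44 in BAT, from -0.00 to 0.18 in iWAT and from -0.11 to 0.19 in eWAT. For WT BAT against iWAT the number called lower ranged from 0 to 1 and the median from 2.05 (without BAT WT-1) to 2.61, and against eWAT from 0 to 1 and from 2.48 (without BAT WT-1) to 3.03. Leaving out each library, Atp5g1 ranged from -1.41 (without BAT WT-2) to 1.29 (without BAT WT-3) against iWAT and from -1.39 to 1.31 against eWAT.

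For WT eWAT against iWAT, leaving out 1 library gave 17 to 27 members called lower and a median of -0.56 to -0.39. Scaling by total counts only gave 15 lower and a median of -0.35, beside a shift of 0.15 in the median of all genes. The 1 member called higher, Cox6b2, gave 0 with at least 10 counts in every library or with only genes counted on the same transcript in the 3 tables. The latter set the level of complex IV at 125 CPM per kb in iWAT and 88.1 in eWAT, since the low gene Cox6b2 left the median. The cause of the other shifts was not tested.

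Replicate numbers were not taken to pair the samples. The mean correlation of the deviations of same-numbered libraries ran from -0.26 (WT and C6KO in BAT) to 0.12 (WT iWAT and eWAT, single pairs 0.04 to 0.22), was above 0 for 7 of 9 pairings of groups, and exceeded 0.1 in every pair for 0 of them. With the replicate block 0 members were called in each C6KO comparison, with medians of 0.08, 0.07 and 0.16, and 84, 85 and 26 members in the 3 depot comparisons in the order above. Cox6a2 was then not called in BAT against iWAT (adjusted p = 0.0971) or eWAT (adjusted p = 0.141).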
